A study of Homo sapiens with 6 samples.

Results

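The mitochondrial genome carries 37 of the 60480 genes in the deposited count table, and these 37 were taken as every row whose symbol starts with MT-. They comprise 13 protein-coding genes, 2 rRNA genes and 22 tRNA genes, and all 37 had enough counts to be tested and lie on chrM of GENCODE v44. RNA-seq of poly(A) RNA had been performed in OE-19 cells, an established line of adenocarcinoma of the esophagogastric junction, in 3 control libraries (shControl, the control knockdown, whose count columns are named Puro, a name the labels do not explain) and 3 libraries of cells carrying shIGF2BP3 (IGF2BP3 KD). No time after knockdown and no further treatment is given for either group, and the labels do not say how many hairpins were used or whether the 3 libraries of a group came from separate cultures. The p-values below therefore measure the spread between these libraries, which may be technical. IGF2BP3, an RNA-binding protein that reads m6A, had 7416, 7363 and 6532 counts in control libraries 1 to 3 and 777, 792 and 794 in IGF2BP3 KD libraries 1 to 3, a log2 fold change of -3.03 ± 0.06 (SE). The comparison asked which transcripts moved when IGF2BP3 was knocked down, and is described here for the mitochondrial transcripts.

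Human mitochondrial DNA is transcribed from both strands into long precursors. The tRNAs within these precursors are cut out, and this releases the rRNAs and mRNAs between them. The mRNAs encode core subunits of complexes I, III, IV and V of oxidative phosphorylation, most receive a poly(A) tail inside the organelle, and they are translated there by mitochondrial ribosomes. For several of the mRNAs the tail also completes the stop codon, which the genome encodes only in part. The plus strand of the reference holds 12 of the coding genes, both rRNA genes and 14 tRNA genes, while MT-ND6 and 8 tRNA genes lie on the minus strand and are called light-strand genes here.

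The coding genes differ in how they end, and the last 15 bases of each are shown because most of the genes that fell end in a partial stop codon. That feature was picked after the values were seen and was not tested. They were read from hg38 chrM in the sense of the gene, 5′ to 3′, with the last codon in capitals, whole or partial.
MT-ND1: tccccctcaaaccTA
MT-ND2: tactaataatcttaT
MT-ND4: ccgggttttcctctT
MT-CYB: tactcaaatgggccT
MT-CO3: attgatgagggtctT
MT-ND3: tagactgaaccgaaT
MT-ATP8: cccccacaatccTAG
MT-ATP6: cacgacaacacaTAA
MT-CO1: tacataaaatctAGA
MT-CO2: gtatttaccctaTAG
MT-ND4L: ctactccaatgcTAA
MT-ND5: ctcctaatcacaTAA
MT-ND6: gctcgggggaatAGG
As annotated, the first 6 of these genes end in a T or TA, and the other 7 carry 3 bases of a last codon. The last base of MT-ATP6 (chrM:9207) is also the first base of MT-CO3.

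MT-ATP8 and MT-ATP6 are read from 1 mRNA in overlapping frames, as are MT-ND4L and MT-ND4. The bases that the genes of each pair share are shown because a read lying there cannot be given to 1 gene of the pair. MT-ATP8 and MT-ATP6 share 46 bases (chrM:8527-8572, plus strand), in which the capitals mark the start codon of MT-ATP6 and the stop codon of MT-ATP8. MT-ND4L and MT-ND4 share 7 bases (chrM:10760-10766), in capitals within chrM:10750-10776.
MT-ATP8 and MT-ATP6: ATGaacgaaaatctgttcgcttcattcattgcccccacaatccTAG
MT-ND4L and MT-ND4: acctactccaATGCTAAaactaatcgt

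Mitochondrial genes took nearly the same part of the RNA in both groups. They held 9.06%, 8.75% and 8.89% of the counts in control libraries 1 to 3, and 8.67%, 9.0% and 8.93% in IGF2BP3 KD libraries 1 to 3. The means were 8.9% ± 0.15 and 8.87% ± 0.17 (SD, n = 3 each), the groups overlapped, and a two-sided exact permutation test gave p = 0.8, where 3 libraries against 3 cannot go below 0.1. Coding genes made up 86.1% to 87.3% of these counts, rRNA genes 11.7% to 13% and tRNA genes 0.89% to 0.904%. Totals per library were 53424071 to 69989087 counts. As the libraries are bulk RNA, the levels cannot tell fewer mitochondria per cell from less RNA per mitochondrion, nor fewer cells with a transcript from less of it per cell.

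Single genes did move, by small amounts. In a fit of all 19778 tested genes (edgeR quasi-likelihood test, adjusted p under 0.05), 5 of the 37 mitochondrial genes fell in IGF2BP3 KD cells (13.5%) and 1 rose (2.7%), while 10.6% of all tested genes fell and 9.87% rose. The groups did not overlap in 15 of the 37, against 35.8% of all tested genes. Over all 37 the share that fell was thus close to that of all genes, and the median log2 fold change was -0.02 over the 37 and 0.01 over all genes tested. By class, 5 of the 13 coding genes fell (38.5%) and 0 of the 22 tRNA genes. The coding genes had standard errors of 0.015 to 0.059, so small changes could be called there. All 5 genes that fell were coding genes: MT-ND1, MT-ND2 and MT-ND4 of complex I, MT-CYB of complex III and MT-ATP8 of complex V. The gene that rose was MT-RNR2, the rRNA of the large subunit of the mitochondrial ribosome. Levels below are CPM, the counts of a gene divided by the TMM-scaled library size.

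**Figure D1:**
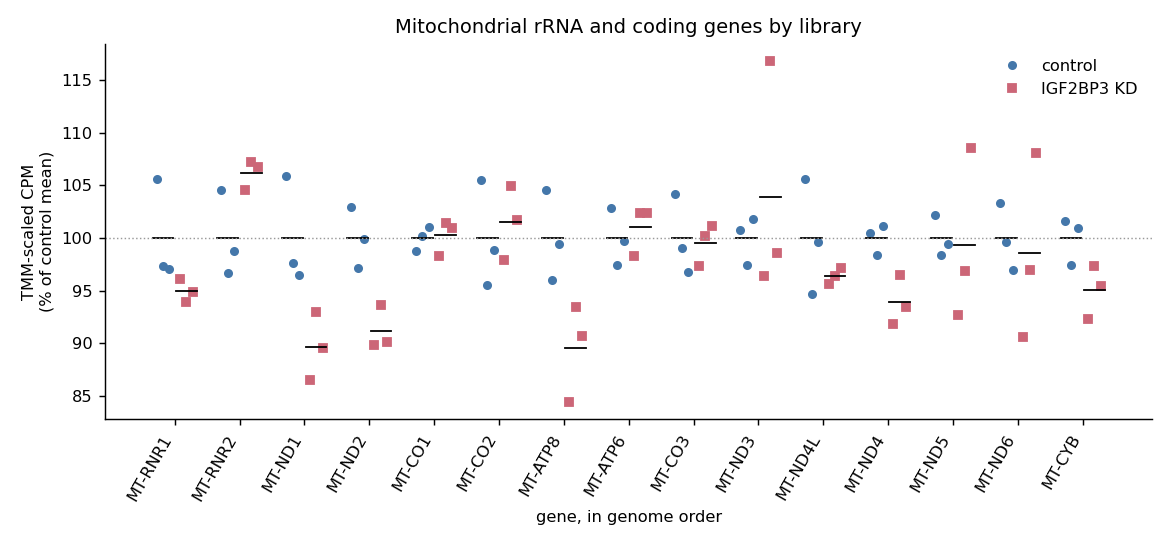
Level of the 2 rRNA genes and 13 coding genes in each library, in genome order. The vertical axis gives TMM-scaled CPM as a percent of the gene's control mean, circles are control libraries 1 to 3 from left to right, squares are IGF2BP3 KD libraries 1 to 3 and bars are group means (n = 3). MT-ND1, MT-ND2 and MT-ATP8 have the lowest IGF2BP3 KD means, MT-RNR2 lies above its controls, and MT-ND3, MT-ND5 and MT-ND6 each have 1 IGF2BP3 KD library that stands above the other libraries.

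Of the 7 complex I subunits encoded in the organelle, 3 fell and 4 did not pass the test. MT-ND1 (ENSG00000198888, chrM:3307-4262), a membrane subunit next to the quinone site, had 2964, 2731 and 2701 CPM in control libraries 1 to 3 and 2421, 2602 and 2506 CPM in IGF2BP3 KD libraries 1 to 3. Every IGF2BP3 KD library was below every control library, and control 1 was the highest. The level fell by 10.3% (95% interval -15% to -5.39%), a log2 fold change of -0.16 ± 0.04 (SE, edgeR, adjusted p = 0.0083). Without IGF2BP3 KD replicate 1 the log2 fold change was -0.14 and the edgeR adjusted p rose to 0.05, no longer past the threshold.

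MT-ND2 (ENSG00000198763, chrM:4470-5511), a membrane subunit of the proton-pumping arm, had 5237, 4942 and 5086 CPM in the control libraries and 4570, 4762 and 4585 CPM in the IGF2BP3 KD libraries. The groups were apart, with IGF2BP3 KD libraries 1 and 3 close together and library 2 above them. MT-ND2 fell by 8.83% (95% interval -12.0% to -5.52%), with a log2 fold change of -0.13 ± 0.02 (SE, edgeR, adjusted p = 0.0019). MT-ND4 (ENSG00000198886, chrM:10760-12137), another membrane subunit of that arm, had 12158, 11902 and 12243 CPM in control and 11110, 11677 and 11304 CPM in IGF2BP3 KD libraries, again without overlap. It fell by 6.09% (95% interval -8.77% to -3.33%), with a log2 fold change of -0.09 ± 0.02 (SE, edgeR, adjusted p = 0.0057). Both genes stayed past the threshold with any 1 library left out.

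The 4 other complex I genes gave no call. MT-ND4L (chrM:10470-10766), the small subunit read from the same mRNA as MT-ND4, had 2460, 2205 and 2320 CPM in control and 2226, 2244 and 2261 CPM in IGF2BP3 KD libraries. The IGF2BP3 KD values lay within the control range, and the log2 fold change was -0.05 ± 0.03 (SE, edgeR, adjusted p = 0.31). Without control replicate 2, the lowest control, it was -0.09 with an edgeR adjusted p of 0.033. MT-ND3 (chrM:10059-10404), the coding gene with the fewest counts, had 369, 357 and 373 CPM in control and 353, 428 and 361 CPM in IGF2BP3 KD libraries. Only IGF2BP3 KD library 2 stood apart, above all others, and the log2 fold change of 0.05 ± 0.06 (SE, edgeR, adjusted p = 0.6) became -0.04 without it.

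MT-ND5 (chrM:12337-14148) and MT-ND6 (chrM:14149-14673) lie next to each other on opposite strands, MT-ND5 on the plus strand and MT-ND6 as the only coding gene of the light strand. MT-ND5 had 6033, 5806 and 5873 CPM in control and 5469, 5719 and 6410 CPM in IGF2BP3 KD libraries. MT-ND6 had 1899, 1830 and 1782 CPM in control and 1664, 1782 and 1986 CPM in IGF2BP3 KD libraries. In both genes IGF2BP3 KD library 1 was the lowest of the 6 and IGF2BP3 KD library 3 the highest, so the KD group spanned the controls. Their log2 fold changes were -0.01 ± 0.05 and -0.02 ± 0.05 (SE, edgeR, adjusted p = 0.92 and 0.84). The 2 genes meet end to end, and the strand setting of the counting is not given in the sources used here. Reads that cross from the one into the other, or that come from the opposite strand, could thus have been counted for either. The ratio of MT-ND6 to MT-ND5 counts was 0.303 to 0.315 in control and 0.304 to 0.312 in IGF2BP3 KD libraries. The MT-ND6 values are therefore not taken as a separate light-strand result, and whether shared reads moved the values was not tested.

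MT-CYB (ENSG00000198727, chrM:14747-15887), cytochrome b, is the only subunit of complex III encoded in the organelle. It had 5229, 5016 and 5198 CPM in control and 4751, 5013 and 4911 CPM in IGF2BP3 KD libraries. The groups nearly touched, since control library 2 and IGF2BP3 KD library 2 differed by less than the spread within either group. MT-CYB fell by 4.98% (95% interval -8.2% to -1.64%), a log2 fold change of -0.07 ± 0.02 (SE, edgeR, adjusted p = 0.04). The call was kept in 2 of the 6 fits that left out 1 library. It was lost without control replicate 1 (log2 fold change -0.07, edgeR adjusted p = 0.095), control replicate 3 (-0.07, 0.13), IGF2BP3 KD replicate 1 (-0.06, 0.17) or IGF2BP3 KD replicate 3 (-0.08, 0.082).

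The 3 complex IV subunits, the catalytic core of cytochrome c oxidase, had log2 fold changes between -0.01 and 0.02 and gave no call. MT-CO1 (chrM:5904-7445), the subunit that holds the site of oxygen reduction and the mitochondrial gene with the most counts, had 23855, 24213 and 24418 CPM in control and 23759, 24518 and 24404 CPM in IGF2BP3 KD libraries. Its log2 fold change was 0.00 ± 0.02 (SE, edgeR, adjusted p = 0.9), and the 95% interval of the change, -1.96% to 2.55%, does not reach the size of the falls in MT-ND1, MT-ND2 and MT-ATP8. MT-CO2 (chrM:7586-8269), which receives electrons from cytochrome c, had 6287, 5694 and 5893 CPM in control and 5836, 6253 and 6060 CPM in IGF2BP3 KD libraries. MT-CO3 (chrM:9207-9990), the third core subunit, had 4061, 3860 and 3771 CPM in control and 3793, 3905 and 3943 CPM in IGF2BP3 KD libraries. The groups overlapped in all 3 genes. The 95% interval of the change was -3.54% to 6.89% for MT-CO2 and -4.33% to 3.64% for MT-CO3 (edgeR, adjusted p = 0.73 and 0.91).

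Of the 2 complex V genes, which share 1 mRNA, the counts of MT-ATP8 fell and those of MT-ATP6 did not pass the test. MT-ATP8 is 207 bases long and shares 46 of them with MT-ATP6, so paired reads over it can also reach MT-ATP6. How such reads were counted is not given in the sources used here. The MT-ATP8 values therefore cannot be read as the level of the shared mRNA, and the part of read assignment was not tested. MT-ATP8 (ENSG00000228253, chrM:8366-8572), a small subunit of the membrane part of ATP synthase, had 2592, 2381 and 2465 CPM in control and 2092, 2317 and 2248 CPM in IGF2BP3 KD libraries, without overlap. It fell by 10.5% (95% interval -15.5% to -5.21%), a log2 fold change of -0.16 ± 0.04 (SE, edgeR, adjusted p = 0.011), and stayed past the threshold with any 1 library left out. MT-ATP6 (chrM:8527-9207), the subunit of the proton channel, had 6176, 5855 and 5988 CPM in control and 5902, 6149 and 6151 CPM in IGF2BP3 KD libraries. The MT-ATP6 groups overlapped, and its log2 fold change was 0.01 ± 0.02 (SE, edgeR, adjusted p = 0.73), with a 95% interval of the change from -2.4% to 4.55%. The ratio of MT-ATP8 to MT-ATP6 counts within a library was 0.42, 0.407 and 0.412 in control and 0.354, 0.377 and 0.365 in IGF2BP3 KD libraries. All 3 IGF2BP3 KD ratios lay below all 3 control ratios, and their mean was 88.6% of the control mean (two-sided exact permutation p = 0.1, the smallest 3 against 3 allows, and 0.3 after Benjamini-Hochberg adjustment over the 12 shares and ratios tested).

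In the other overlapping pair the ratios of the groups overlapped. MT-ND4L to MT-ND4 was 0.202, 0.185 and 0.189 in control and 0.2, 0.192 and 0.2 in IGF2BP3 KD libraries, with overlap (exact permutation p = 0.4). MT-ND5 to MT-ND4 was 0.496, 0.488 and 0.48 in control and 0.492, 0.49 and 0.567 in IGF2BP3 KD libraries, so IGF2BP3 KD library 3 alone stood apart (exact permutation p = 0.4). The same library was highest for MT-ND6 to MT-ND4, at 0.176 against 0.146 to 0.156 in control and 0.15 and 0.153 in the other IGF2BP3 KD libraries (exact permutation p = 0.6). MT-ND6 to MT-ND5 showed no such library, with 0.303 to 0.315 in control and 0.304 to 0.312 in IGF2BP3 KD (exact permutation p = 0.6).

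**Figure D2:**
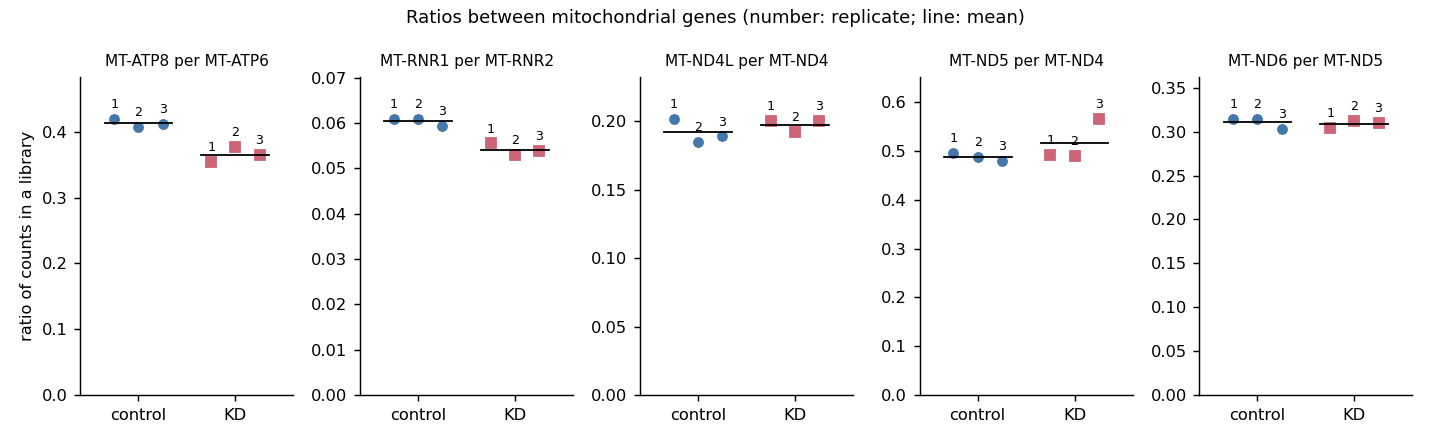
Ratios of counts between mitochondrial genes within each library. Each panel has its own vertical axis, starting at 0, with control libraries as circles, IGF2BP3 KD libraries as squares, the replicate number above each point and the group mean as a line (n = 3). MT-ATP8 per MT-ATP6 and MT-RNR1 per MT-RNR2 separate the groups, and MT-ND5 per MT-ND4 has IGF2BP3 KD replicate 3 at 0.567, above the other libraries.

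The 2 rRNA genes lie in a row with MT-TV between them, and MT-RNR2 rose while MT-RNR1 did not pass the test. MT-RNR2 (ENSG00000210082, chrM:1671-3229) had 10527, 9737 and 9949 CPM in control and 10532, 10795 and 10752 CPM in IGF2BP3 KD libraries. The groups were separate by a narrow margin, as control library 1 was next to IGF2BP3 KD library 1. MT-RNR2 rose by 6.18% (95% interval 2.25% to 10.3%), a log2 fold change of 0.09 ± 0.03 (SE, edgeR, adjusted p = 0.029). With 1 library left out the call was kept only without control replicate 1 (log2 fold change 0.12, edgeR adjusted p = 0.00083) and was lost without control replicate 2 (0.06, 0.11), control replicate 3 (0.08, 0.14), or IGF2BP3 KD replicate 1 (0.09, 0.077), replicate 2 (0.08, 0.1) or replicate 3 (0.08, 0.11).

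MT-RNR1 (ENSG00000211459, chrM:648-1601), the rRNA of the small subunit, had 643, 593 and 591 CPM in control and 585, 572 and 578 CPM in IGF2BP3 KD libraries. The groups did not overlap, yet the log2 fold change of -0.07 ± 0.03 (SE) did not pass (edgeR, adjusted p = 0.14), while DESeq2 gave an adjusted p of 0.037. The ratio of MT-RNR1 to MT-RNR2 was 0.061, 0.0609 and 0.0594 in control and 0.0555, 0.053 and 0.0538 in IGF2BP3 KD libraries, a mean of 89.5% of control. The ratio of rRNA to coding counts was 0.141, 0.135 and 0.135 in control and 0.15, 0.147 and 0.147 in IGF2BP3 KD libraries. Both ratios separated the groups, each with a two-sided exact permutation p of 0.1, the smallest possible, and 0.3 after adjustment over the 12 shares and ratios. Since the RNA was selected for poly(A) tails, the rRNA counts come from what passed that selection and are not the amount of rRNA in the cells.

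No tRNA gene was called among the 22, whose counts ran from 24 to 13090. Their log2 fold changes lay between -0.32 for MT-TV, the valine tRNA, and 0.25 for MT-TI, the isoleucine tRNA, and the smallest adjusted p was 0.15 (edgeR), that of MT-TE. At an unadjusted p under 0.05, 1 was lower and 0 were higher. The 14 tRNA genes with a mean under 1000 counts had standard errors of 0.13 to 0.41, so changes of the size seen in the mRNAs were not detectable there. The 8 that reached a mean of 1000 counts had log2 fold changes of -0.14 to 0.01 with standard errors of 0.03 to 0.10. MT-TY, the tyrosine tRNA gene with the most counts, had 188, 188 and 193 CPM in control and 178, 184 and 185 CPM in IGF2BP3 KD libraries, lower in all 3 but not called (log2 fold change -0.06 ± 0.03, SE, edgeR, adjusted p = 0.23). MT-TN, for asparagine, had 166, 152 and 159 CPM in control and 155, 159 and 154 CPM in IGF2BP3 KD libraries. MT-TC, for cysteine, had 150, 153 and 158 CPM in control and 150, 157 and 147 CPM in IGF2BP3 KD libraries. Both overlapped between the groups (edgeR, adjusted p = 0.74 and 0.69).

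**Figure D3:**
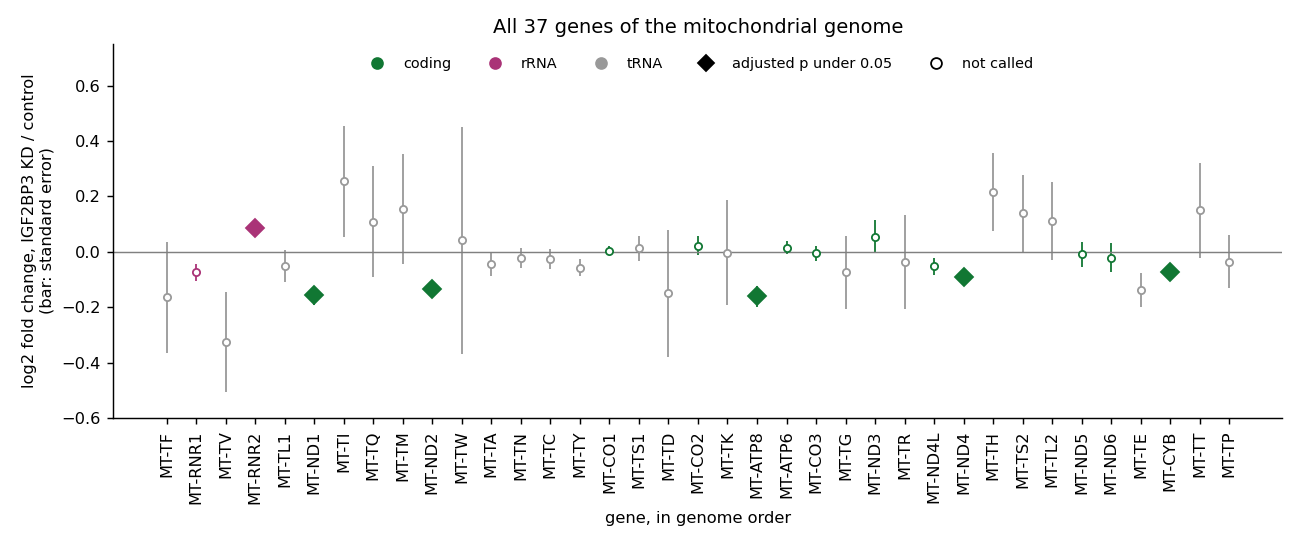
Log2 fold change of IGF2BP3 KD against control for all 37 genes in genome order, with bars of 1 standard error. Filled diamonds mark the 6 genes with an edgeR adjusted p under 0.05, open circles the other 31, and colours the gene class. The coding and rRNA genes lie between -0.16 and 0.09 with short bars, and the 14 tRNA genes with a mean under 1000 counts spread from -0.32 to 0.25 with long ones.

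Per annotated length, the control counts of the coding genes spanned a wide range. MT-CO1 was highest at 15700 CPM per kb, followed by MT-ATP8 at 12000 CPM per kb. MT-ATP6 (8820), MT-ND4 (8780) and MT-CO2 (8710 CPM per kb) came next, and their ranges over the 3 control libraries overlapped, so their order is not resolved. MT-ND4L stood at 7840, MT-CO3 at 4970, MT-ND2 at 4880 and MT-CYB at 4510 CPM per kb, with MT-CO3 and MT-ND2 overlapping. MT-ND6 (3500), MT-ND5 (3260) and MT-ND1 (2930) were lower, and MT-ND3 was lowest of the coding genes at 1060 CPM per kb. MT-RNR2 had 6460 and MT-RNR1 638 CPM per kb, both measured after poly(A) selection. How reads over the bases that MT-ATP8 and MT-ATP6 share were counted is not given in the sources used here, so the MT-ATP8 level is uncertain. Reads that lie only partly in a gene may also raise the level per kb of short genes, such as MT-ATP8 and MT-ND4L, against long ones. The MT-ND6 level is uncertain too, as the strand setting is not given. The order is therefore one of counts per annotated length and not of transcript levels.

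Counts of tRNA genes differed by strand, but the strand setting of the counting is not given in the sources used here, so counts of light-strand genes may include reads of plus-strand precursors, and this was not tested. Of the 8 tRNA genes that reached a mean of 1000 counts, 7 were light-strand genes (MT-TA, MT-TN, MT-TC, MT-TY, MT-TS1, MT-TE and MT-TP) and 1, MT-TL1, was not. The 13 other plus-strand tRNA genes and the light-strand MT-TQ had less. MT-TY reached 2880 and MT-TC 2330 CPM per kb in control, while MT-TF had 32.4 and MT-TW 7.32 CPM per kb. Mature tRNAs are short, structured and without a poly(A) tail, so these counts cannot be read as tRNA levels. With the same doubt about strand, light-strand genes together gave 2.9%, 2.91% and 2.82% of the mitochondrial counts in control and 2.77%, 2.81% and 3.04% in IGF2BP3 KD libraries, with IGF2BP3 KD library 3 the highest (exact permutation p = 0.9).

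**Figure D4:**
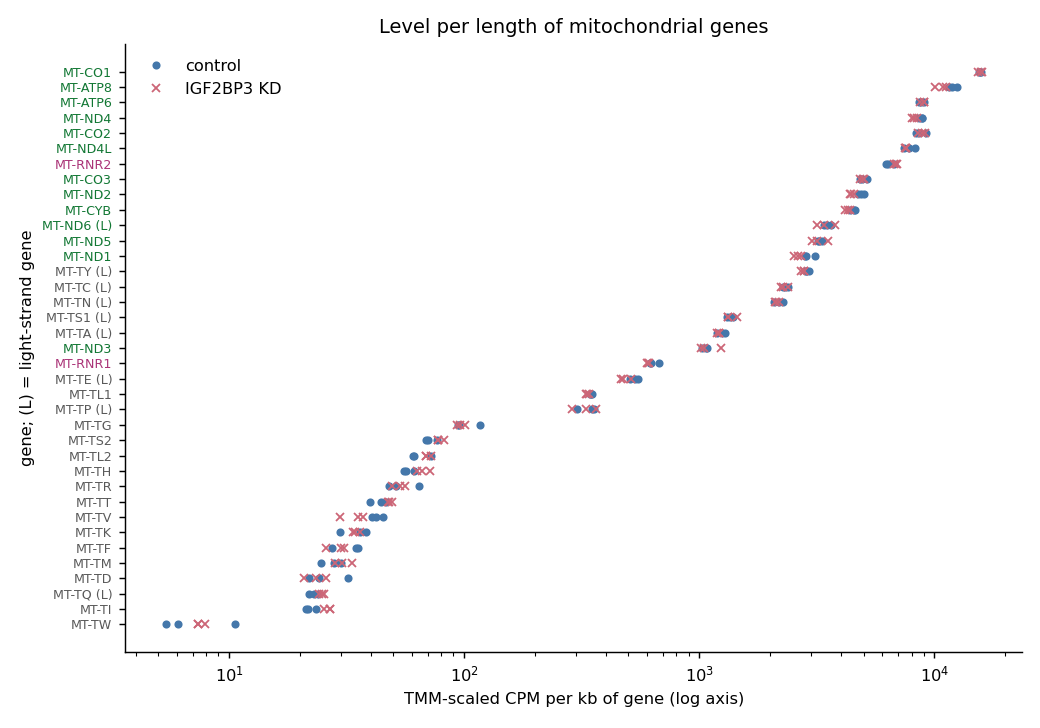
TMM-scaled CPM per kb of gene, on a log axis, for each library and each of the 37 genes, sorted by the control mean. Circles are control and crosses IGF2BP3 KD libraries, gene names are green for coding, purple for rRNA and grey for tRNA genes, and (L) marks light-strand genes. Counts of light-strand tRNA genes, MT-TQ apart, lie above those of nearly all plus-strand tRNA genes, though they may include reads of the opposite strand, and the groups lie close together for every gene on this scale.

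Measured against the sum of the mitochondrial mRNAs, which includes the gene itself where it is a coding gene, the pattern was narrower. With the summed counts of the 13 coding genes as library size, MT-ATP8 (log2 fold change -0.12, edgeR adjusted p = 0.014), MT-ND1 (-0.12, 0.019) and MT-ND2 (-0.10, 0.018) were lower and MT-RNR2 was higher (0.12, 0.0038). On this scale 7.4% of all tested genes were lower (1464) and 11.3% higher (2227), against 2088 lower and 1953 higher in the fit above. MT-ND4 (log2 fold change -0.05, edgeR adjusted p = 0.11) and MT-CYB (-0.04, 0.31) did not pass. MT-RNR2 was called in each of the 6 fits on this scale that left out 1 library, whereas the number of lower genes was 0 to 3, with 0 without control replicate 1 or IGF2BP3 KD replicate 3 and 1 without control replicate 3. Calls over all genes dropped as well in these 6 fits, to 1008 to 1433 lower and 1515 to 1834 higher. As a share of the coding counts, MT-CO1 went from 31.0% ± 0.77 to 31.8% ± 0.27, MT-ATP6 from 7.69% ± 0.08 to 7.97% ± 0.02, MT-ND4 from 15.5% ± 0.17 to 14.9% ± 0.23 and MT-ND2 from 6.52% ± 0.08 to 6.09% ± 0.13 (SD, n = 3 each). These are 4 of the 7 coding genes whose shares did not overlap between the groups, with MT-ND1, MT-ATP8 and MT-CYB, while the shares of the other 6 overlapped. For comparison, the CPM of 35.8% of all tested genes did not overlap. Shares of 1 total move against each other, so a lower share of some genes raises the others.

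Of the 6 coding genes with a partial last codon, 4 fell (MT-ND1, MT-ND2, MT-ND4 and MT-CYB) and MT-CO3 and MT-ND3 did not pass, with a median log2 fold change of -0.08. Of the 7 annotated with a whole last codon, 1 fell (MT-ATP8), with a median of -0.01. This grouping was made after the values were seen, follows the annotated gene ends and carries no test. Scaled to the 13 coding genes, only MT-ND1 and MT-ND2 of the first group and MT-ATP8 of the second were lower. The last base of MT-ATP6 is also the first base of MT-CO3 (chrM:9207), so its last codon may not be whole in the mRNA. MT-ATP8 and MT-ND4L share an mRNA with the gene that follows, so their last codons do not lie at an mRNA end. The GC content of the 5 genes that fell was 39.6% to 47.7% (median 44.3%) and that of the 8 other coding genes 40.2% to 46.6% (median 44.5%).

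Copies of mitochondrial genes in the nuclear genome can take reads that belong to chrM. The table listed 402 such copies, and together they held 0.0993% to 0.113% of a library. Only 3 had a mean of at least 10000 counts, all from 1 stretch of chromosome 1 in hg38: MTND2P28 (chr1:629640-630683), MTCO1P12 (chr1:631074-632616) and MTATP6P1 (chr1:633696-634376). Their sequences were 98.4%, 98.6% and 98.5% identical to MT-ND2, MT-CO1 and MT-ATP6. MTND2P28 had 9.58% to 10.7% of the counts of MT-ND2, with a log2 fold change of -0.02 (edgeR, adjusted p = 0.74), MTCO1P12 had 1.19% to 1.44% of those of MT-CO1 (0.15, 0.029), and MTATP6P1 had 3.12% to 3.62% of those of MT-ATP6 (0.01, 0.91). With the copies' counts added to their mitochondrial genes, 5 mitochondrial genes were lower and 1 was higher, as before, and MT-ND2 fell by 8.37% (edgeR, adjusted p = 0.0034).

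The nuclear genes that serve this genome were described from lists of known members, to be read against the 10.6% lower and 9.87% higher among all tested genes. Among 24 genes of mtDNA replication and transcription, 5 fell, 0 rose and 19 did not pass, with a median log2 fold change of -0.08. The 5 act in copying the DNA or supplying its nucleotides: POLG, the catalytic subunit of the mitochondrial DNA polymerase (78.3 ± 3.22 to 65.0 ± 5.54 CPM, SD, n = 3), TWNK, its helicase (30.9 ± 2.17 to 24.9 ± 0.56 CPM), DNA2, a nuclease and helicase also active in the nucleus (34.2 ± 1.8 to 23.9 ± 1.73 CPM), PRIMPOL, a primase (5.12 ± 0.43 to 3.29 ± 0.69 CPM), and RRM2B, a ribonucleotide reductase subunit (46.4 ± 1.39 to 40.1 ± 0.80 CPM). Their log2 fold changes were -0.27 for POLG, -0.31 for TWNK, -0.51 for DNA2, -0.64 for PRIMPOL and -0.21 for RRM2B. The groups were apart in all 5. Other genes of the list with these roles gave no call, among them POLG2, SSBP1, TK2 and DGUOK, named after their values were seen (edgeR, adjusted p = 0.37, 0.19, 0.44 and 0.55). PRIMPOL did not pass without control replicate 1 (edgeR, adjusted p = 0.071), control replicate 3 (0.097), IGF2BP3 KD replicate 1 (0.088) or IGF2BP3 KD replicate 3 (0.078), and RRM2B did not without IGF2BP3 KD replicate 1 (0.051). With that library left out, 3 genes of the list were lower.

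The factors that start and sustain transcription of the genome gave no call. POLRMT, the RNA polymerase, had 70.5, 81.6 and 82.0 CPM in control and 69.3, 72.7 and 78.6 CPM in IGF2BP3 KD libraries (log2 fold change -0.09 ± 0.07, SE, edgeR, adjusted p = 0.44). TFAM, which bends the promoter and packages the DNA, had 67.5, 60.6 and 65.5 CPM in control and 61.1, 63.7 and 63.1 CPM in IGF2BP3 KD libraries (-0.04 ± 0.05, SE, edgeR, adjusted p = 0.63). TFB2M, the initiation factor, had a log2 fold change of -0.09 ± 0.06 (SE, edgeR, adjusted p = 0.31), and TEFM, the elongation factor, 0.02 ± 0.08 (SE, edgeR, adjusted p = 0.91). The groups overlapped in all 4 genes.

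Among 55 genes of mitochondrial RNA processing, modification, polyadenylation and decay, 8 fell, 2 rose and 45 did not pass, with a median log2 fold change of -0.07. REXO2, which degrades short RNA remnants in the organelle, had 33.3, 30.9 and 29.8 CPM in control and 19.0, 20.6 and 19.1 CPM in IGF2BP3 KD libraries. The groups were far apart for REXO2, with a log2 fold change of -0.68 ± 0.07 (SE, edgeR, adjusted p = 3.7e-05), and it passed with any 1 library left out. PNPT1, the exoribonuclease of the mitochondrial degradosome, went from 67.1, 64.1 and 61.2 CPM to 49.2, 51.9 and 51.2 CPM (log2 fold change -0.34 ± 0.05, SE, edgeR, adjusted p = 0.0007). SUPV3L1, its helicase partner, had 33.5, 29.5 and 27.1 CPM in control and 26.9, 25.5 and 25.1 CPM in IGF2BP3 KD libraries and did not pass (-0.22 ± 0.08, SE, edgeR, adjusted p = 0.075), although without control replicate 3 it did (-0.29, 0.036).

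LRPPRC, which binds and stabilizes mitochondrial mRNAs, had 455, 440 and 446 CPM in control and 422, 411 and 410 CPM in IGF2BP3 KD libraries, without overlap. Its log2 fold change was -0.11 ± 0.03 (SE, edgeR, adjusted p = 0.011), and without IGF2BP3 KD replicate 2 the adjusted p was 0.051. SLIRP, its partner, had a log2 fold change of 0.02 ± 0.08 (SE, edgeR, adjusted p = 0.92), and MTPAP, the mitochondrial poly(A) polymerase, -0.05 ± 0.07 (SE, edgeR, adjusted p = 0.69). The tRNA modification genes YRDC (20.2 ± 1.49 to 15.4 ± 1.52 CPM, SD, n = 3) and MTO1 (29.2 ± 1.81 to 23.6 ± 1.08 CPM) fell, with log2 fold changes of -0.40 and -0.30 (edgeR, adjusted p = 0.0086 and 0.0079). The remaining genes of the list that fell were ELAC2, NSUN2 and CDK5RAP1, named after their values were seen (-0.25, -0.26 and -0.2, edgeR, adjusted p = 0.00033, 0.0014 and 0.029). The 2 that rose were METTL8, a tRNA methyltransferase (log2 fold change 0.27 ± 0.08, SE, edgeR, adjusted p = 0.045), and GRSF1, a protein of mitochondrial RNA granules that was named after its value was seen (0.13 ± 0.04, SE, edgeR, adjusted p = 0.04). METTL8 did not pass with any 1 library left out, with edgeR adjusted p-values of 0.06 to 0.15.

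Of 23 mitochondrial translation factors, 3 fell and 1 rose. GFM1, an elongation factor, went from 179 ± 12.0 to 146 ± 3.87 CPM (SD, n = 3, log2 fold change -0.30, edgeR adjusted p = 0.00089), C1QBP, a matrix protein needed for mitochondrial translation, from 129 ± 3.42 to 112 ± 4.80 CPM (-0.20, 0.0049), and GFM2, the recycling factor, from 22.8 ± 2.33 to 18.1 ± 1.89 CPM (-0.33, 0.030). MTIF3, an initiation factor, rose from 35 ± 1.93 to 43.5 ± 2.37 CPM (0.31, 0.0042). GFM2 did not pass in 4 of the 6 fits without 1 library (edgeR, adjusted p = 0.11 without control replicate 1, 0.088 without control replicate 3, 0.11 without IGF2BP3 KD replicate 2 and 0.12 without IGF2BP3 KD replicate 3).

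Regulators of mitochondrial biogenesis moved in both directions. Of 12 tested, 2 fell and 4 rose, with a median log2 fold change of 0.11. PPARGC1A, the coactivator known as PGC-1alpha, had 51.3, 52.5 and 51.5 CPM in control and 40.2, 39.7 and 40.9 CPM in IGF2BP3 KD libraries (log2 fold change -0.36 ± 0.05, SE, edgeR, adjusted p = 0.00028). GABPA, the DNA-binding subunit of NRF-2, fell (-0.39 ± 0.06, SE, edgeR, adjusted p = 0.00059), whereas its partner GABPB1 rose (0.31 ± 0.08, SE, edgeR, adjusted p = 0.019). The fatty acid receptors PPARA (0.46 ± 0.05, SE) and PPARD (0.42 ± 0.05, SE) rose (edgeR, adjusted p = 5.1e-05 and 0.00016), as did YY1, a transcription factor named after its value was seen (0.16 ± 0.03, SE, edgeR, adjusted p = 0.0059). GABPB1 was not called without control replicate 3 (edgeR, adjusted p = 0.088) or IGF2BP3 KD replicate 1 (0.083).

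The 75 nuclear subunits of complexes I, III, IV and V, which assemble with the 13 mitochondrial ones, had 3 genes lower, 11 higher and 61 without a call, with a median log2 fold change of 0.05. Genes that rose included UQCRC2 and UQCR10 of complex III (log2 fold change 0.28 and 0.35, edgeR adjusted p = 0.00021 and 0.0046) and ATP5MJ and ATP5IF1 of complex V, the latter an inhibitor of ATP synthase (0.24 and 0.23, edgeR adjusted p = 0.021 and 0.010). NDUFB9 of complex I fell (-0.24, edgeR adjusted p = 0.00011), as did NDUFV2 of complex I and CYC1 of complex III, which were named after their values were seen (-0.11 and -0.14, edgeR adjusted p = 0.017 and 0.015). The number that rose was 5 to 10 with 1 library left out, lowest without IGF2BP3 KD replicate 2, and ATP5MJ was not called without control replicate 2 (edgeR, adjusted p = 0.054), control replicate 3 (0.09), IGF2BP3 KD replicate 2 (0.093) or IGF2BP3 KD replicate 3 (0.057).

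**Figure D5:**
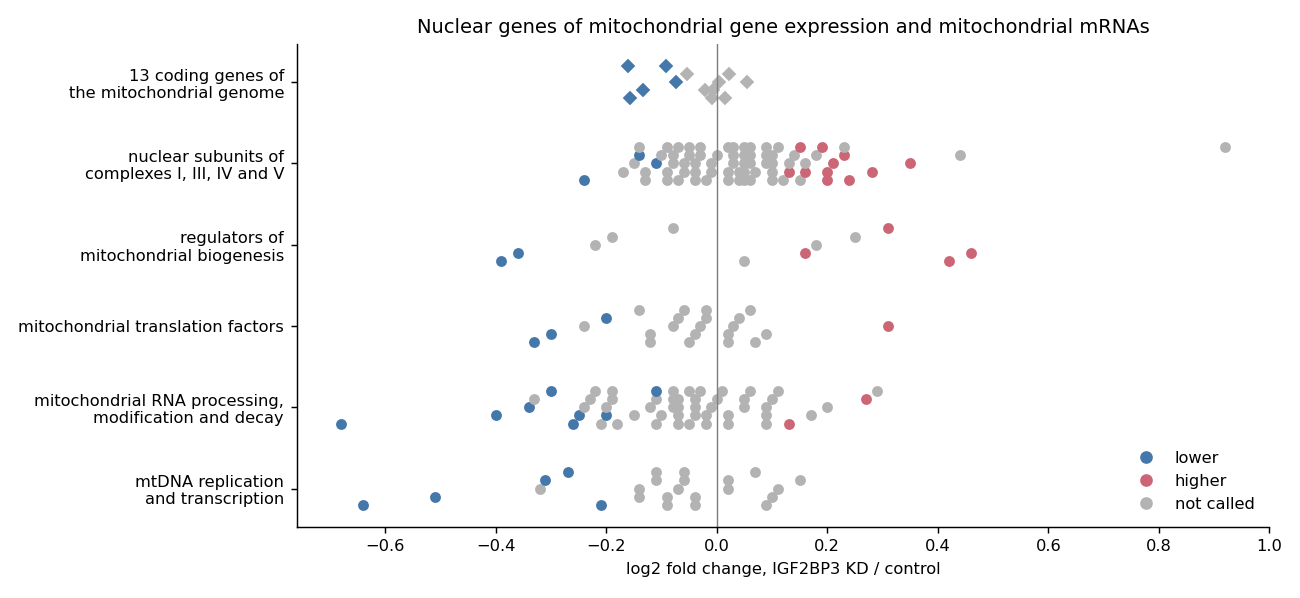
Log2 fold change of IGF2BP3 KD against control for each tested gene of the 5 nuclear lists (circles) and for the 13 coding genes of the mitochondrial genome (diamonds, top). Blue marks genes lower and red genes higher at an edgeR adjusted p under 0.05, grey the others, and the vertical spread within a list only separates points. The mitochondrial mRNAs lie within -0.16 and 0.05, and REXO2 at -0.68 is the lowest of the nuclear genes shown.

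Genes listed as epithelial markers were expressed in every library. The 6 epithelial markers summed to 18000 to 19100 CPM in control and 19900 to 20300 CPM in IGF2BP3 KD libraries, most of it from ERBB2 (13100 ± 516 to 14300 ± 279 CPM, SD, n = 3), which was called higher. EPCAM was also called higher (473 ± 12.4 to 526 ± 14.0 CPM), while KRT8 (2630 ± 18.8 to 2520 ± 29.8 CPM) and KRT18 (1160 ± 15.5 to 1100 ± 18.7 CPM) were called lower (edgeR, adjusted p = 0.038 and 0.032). KRT19 (982 ± 15.7 to 992 ± 18.9 CPM) and CDH1 (484 ± 2.85 to 504 ± 8.65 CPM) were not called (edgeR, adjusted p = 0.75 and 0.12). The 7 markers of other cell types summed to 53.5 to 60.5 and 83.5 to 84.0 CPM, nearly all from COL1A1 (21.7 ± 1.65 to 30.8 ± 2.32 CPM, SD, n = 3) and CD68 (35.8 ± 2.62 to 51.9 ± 2.89 CPM), both higher in IGF2BP3 KD, while COL1A2 and CD3E had 0 counts in every library, PTPRC at most 8, PECAM1 at most 5 and VIM at most 46. The part of these markers in the mitochondrial results was not tested.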

How the data were processed

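Poly(A) RNA of 3 control and 3 IGF2BP3 KD OE-19 samples had been sequenced as paired reads from a directional library kit. The submitters' notes name fastp, HISAT2 and featureCounts on hg38, and their versions, the strand setting and the annotation release are not given in the sources used here. The authors deposited counts per gene, without normalization. Of 60612 table rows, 132 were repeats of 44 identifiers and were dropped.

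All 6 libraries entered 1 edgeR (4.0.16, R 4.3.3) quasi-likelihood fit (glmQLFit, glmQLFTest) with TMM factors, no block and genes kept by filterByExpr (minimum count 10, minimum total 15). P-values were adjusted over the 19778 genes kept by the method of Benjamini and Hochberg and called under 0.05. Shares and ratios were compared with two-sided exact permutation tests (SciPy 1.17.1). DESeq2 1.42.0, other scalings and filters, a replicate block and each library left out were tried as alternatives. Intervals are 95% and cover the spread between libraries.

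Members and gene lists were chosen with earlier results of these data known. Named are all mitochondrial coding and rRNA genes, the 3 tRNA genes with the most counts where none was called, 9 regulators, and up to 5 called genes per nuclear list with the largest change. Positions and sequences come from GENCODE v44 and hg38.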

Additional observations from a re-analysis of the deposited data

How the results depend on the processing

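With libraries scaled to the 13 coding genes, 3 mitochondrial genes were lower instead of 5. With no filter on low counts, 0 were higher by edgeR (1 at an unadjusted p under 0.05, and 1 by DESeq2), and genes higher in the nuclear lists went from 18 to 10. Over all genes, those called higher went from 1953 of 19778 tested to 1354 of 38462 without the filter. With 1 library left out, 3 to 6 mitochondrial genes were lower (3 without IGF2BP3 KD replicate 1) and 0 to 1 higher, and the nuclear lists had 10 to 18 higher and 17 to 19 lower genes, against 21 lower with all libraries. Calls over all genes dropped as well in these fits, to 1641 to 1970 lower and 1414 to 1741 higher, from 2088 and 1953. Relative to the 13 coding genes, 3 were lower, and 0 to 3 with 1 library left out. On that scale calls over all genes went from 1464 lower and 2227 higher to 1008 to 1433 lower and 1515 to 1834 higher. The mitochondrial share of the counts differed by -0.0302 percentage points between groups, and by -0.103 to 0.0675 with 1 library left out.

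MT-ATP8 and MT-ND2 passed in each of 15 alternative fits that changed 1 choice, and MT-ND4 in each but the scaling to the 13 coding genes (edgeR, adjusted p = 0.11). MT-CYB did not pass on total counts without TMM (log2 fold change -0.06, edgeR adjusted p = 0.087) or without a filter (-0.08, 0.13), nor MT-RNR2 without a filter (0.08, 0.2). The cause of these shifts was not tested.

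Uncalled genes near 0 changed sign. MT-CO1 had a log2 fold change of -0.00025 with RLE scaling, -0.00039 with scaling that left out the mitochondrial genes, -0.00045 with at least 10 counts in every library, -0.005 without a filter and -0.003 in DESeq2. Total counts and scaling to the 13 coding genes gave 0.011 and 0.03 for MT-CO3 and 0.007 and 0.026 for MT-ND5, and the latter gave 0.014 for MT-ND6. With 1 library left out, ranges were -0.008 to 0.014 for MT-CO1, -0.012 to 0.06 for MT-CO2, -0.032 to 0.022 for MT-CO3, -0.006 to 0.032 for MT-ATP6, -0.038 to 0.101 for MT-ND3, -0.081 to 0.034 for MT-ND5, -0.095 to 0.032 for MT-ND6, -0.012 to 0.054 for TEFM and -0.033 to 0.055 for SLIRP.

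The groups share replicate numbers, but same-numbered libraries did not deviate together (correlations 0.0141, -0.0622 and -0.00732), so the numbers were not taken as pairs. With the replicate number as a block, 4 mitochondrial genes were lower and 0 higher by edgeR (1 at an unadjusted p under 0.05, and 1 by DESeq2 without a block). Over all 19778 tested genes, 2026 were lower and 1875 higher with the block, against 2088 and 1953 without it. On the scale of the 13 coding genes the block left 0 lower (3 at an unadjusted p under 0.05). Over all genes it left 1256 lower and 1921 higher on that scale, against 1464 and 2227 without the block.

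Depth limits the 14 tRNA genes with a mean under 1000 counts, and how reads in the bases shared by overlapping genes were counted is not given in the sources used here, which limits MT-ATP8 and MT-ND4L.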
